A study of Mus musculus with 8 samples.

Results

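Strong G9a sites of wild-type mouse embryonic stem cells that were also called in cells rescued with G9a, and that carried no Ezh2 peak, numbered 5207. They were chosen from the wild-type G9a peak list on chromosomes 1 to 19 by a peak score of at least 100, an overlap of at least 1 bp with a peak of the rescue list, and no overlap with a peak of any of the 3 Ezh2 lists. The wild-type list held 67318 peaks, of which 7196 passed the score on these chromosomes. Of the 7196, 241 overlapped an Ezh2 peak and 6955 did not. Of those 6955, 5207 overlapped a rescue peak and are called restored sites here, and 1748 did not. The word restored means only that a rescue peak was called there. No score minimum was set for the rescue peak, and the rescue list reached down to a score of 20. At restored sites the best rescue peak had a median score of 57.26, so the limits for the wild type and the rescue were unlike. The wild-type score, the overlap with the rescue and the lack of Ezh2 chose the sites, so these are descriptions and were not tested.

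The data were ChIP-seq peak lists, 1 for each of 5 libraries from the TT2 line, embryonic stem cells derived from a cross of a C57BL/6 female with a CBA male and grown with LIF. G9a was profiled in 1 library of wild-type cells and in 1 library of cells that lack both G9a and GLP and were given wild-type G9a. By its label the rescue put back G9a alone, so those cells still lacked GLP; how G9a was put back, its level and whether the line was 1 clone are not given in the sources used here. Ezh2 was profiled in 2 wild-type libraries, numbered 0 and 1, and in 1 library of the G9a-/- GLP-/- cells. Both G9a samples were crosslinked with the protein-to-protein reagent DSG (45 min at 2 mM) ahead of formaldehyde, and the Ezh2 samples with formaldehyde alone. The rescue list held 83721 peaks, and the Ezh2 lists held 5425 and 11766 peaks in wild-type libraries 0 and 1 and 6198 in the knockout. Peak lists carry neither read counts nor transcripts, so the depth is unknown and neither the knockout nor the cell type could be checked against marker genes. No G9a library from cells without G9a was analysed here, so the share of G9a calls that is background is unknown.

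G9a and its partner GLP are related enzymes with a SET domain that work together as a heteromeric complex and place mono- and dimethyl marks on lysine 9 of histone H3, marks linked to gene silencing in euchromatin. G9a contains ankyrin repeats that bind the methyl marks it makes, and it reaches its sites through DNA-binding partners. Ezh2 supplies the methyltransferase activity of the Polycomb complex PRC2, whose mark is on lysine 27 of histone H3, and in embryonic stem cells it sits mainly at CpG-rich promoters of developmental genes. No genome or annotation of mm9, the build of these lists, was used here, so sites are named by position and no gene is assigned to them.

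The share of wild-type sites found in the rescue was read against the whole list. Over all wild-type peaks on chromosomes 1 to 19, 31.9% overlapped a rescue peak (21396 of 67077). Among strong peaks without Ezh2 the share was 74.9% (5207 of 6955). Among weaker peaks without Ezh2, those with a score under 100, it was 26.5% (15450 of 58304). The 241 strong peaks with Ezh2 were found in the rescue at 75.9% (183 of 241). Since the rule used this overlap, nothing is read from these shares about the restored sites themselves.

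The single strongest G9a peak of both lists was the same site. It lies on chromosome 4 from 150977827 to 150980187, is 2361 bp wide and scored 3100 in wild-type and 3201.3 in rescued cells, rank 1 in each list. Its rescue peak ran from 150977866 to 150979648 and so lay inside the wild-type peak. The nearest other restored site was 153 kb away and the nearest Ezh2 peak, from the knockout, 39.5 kb away. A score of 3100 was also the highest in the Ezh2 knockout list and in Ezh2 wild-type library 0, where 5 peaks had it. It may therefore be an upper limit of the score, so 3100 and 3201.3 are not compared.

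The second by the mean of both ranks, on chromosome 18 from 25825689 to 25828041 (2353 bp), ranked 4 in the wild type with a score of 1903.18 and 4 in the rescue with 1610.59. Peaks of each of the 3 Ezh2 lists lay within 10 kb of it, the closest at 8.70 kb. The third, on chromosome 15 from 72398211 to 72400165 (1955 bp), ranked 9 and 5, with scores of 1603.24 and 1578.81. These sites were picked by the mean of both ranks, so their place near the top of each list is given as a description.

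Chromosome 4 held 5 of the 10 sites with the lowest mean rank. Apart from the first, they began at 139813675 (wild-type rank 13, rescue rank 12), 139838344 (ranks 10 and 28), 152172781 (ranks 24 and 8) and 133575372 (ranks 30 and 16). The pair starting at 139813675 and 139838344 each had 5 other restored sites within 100 kb. Chromosome 14 held the site from 64331351 to 64332727 (ranks 20 and 15), chromosome 12 the one from 44073345 to 44074680 (ranks 18 and 22), and chromosome 9 the one from 20661283 to 20662857 (ranks 29 and 17). The site on chromosome 12 was far from Ezh2, at 1248 kb. The 10 sites were between 1336 and 3003 bp wide, and each had a rescue peak at least 1630 bp wide.

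Restored sites stood high in the rescue list, but their order there followed the wild-type order only loosely. In the wild-type list the restored sites ranked from 1 to 7213, with a median rank of 3231. In the rescue list the best overlapping peak had a median rank of 8813 of 83721 (95% interval 8356 to 9311), which is the top 10.5% of that list, and ranks ran from 1 to 83334. Of the 5207 sites, 2536 (48.7%; 47.3 to 50.1) had a rescue peak in the top 10% of the rescue list, 420 (8.07%) in the top 1%, and 675 (13.0%; 12.1 to 13.9) in its lower 50%. The weaker wild-type peaks found in the rescue had a median rescue rank of 23141, and 21.9% of them (21.3 to 22.6) lay in the top 10%. More than 1 rescue peak overlapped 22.6% of restored sites but 6.20% of the weaker ones. The best rank was thus taken from more peaks at restored sites, and the comparison is not matched for this. The intervals of shares are exact binomial and those of medians come from binomial order statistics. They cover the number of peaks only and not variation between cultures, and neighbouring peaks are not independent.

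Sites with higher wild-type scores had better rescue ranks. The restored sites were divided by wild-type score into 10 groups of equal size. In the group with the highest scores, 410.22 and above, the median rescue rank was the top 3.47% of the list and 74.1% of sites were in its top 10%. In the group with the lowest scores, 100 to 109.53, the median was 17.0% and 34.4% were in the top 10%. Within each group the spread was wide. The 25th and 75th percentiles of the rescue rank were 0.985% and 10.8% of the list in the highest group and 6.86% and 37.5% in the lowest. Over all 5207 sites Spearman's rho between the scores in the lists was 0.26, given as a description because both lists were used to choose the sites. It was 0.30 for the 4594 sites outside chromosomes 1 and 8 and 0.16 for the 613 sites on them.

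**Figure D1:**
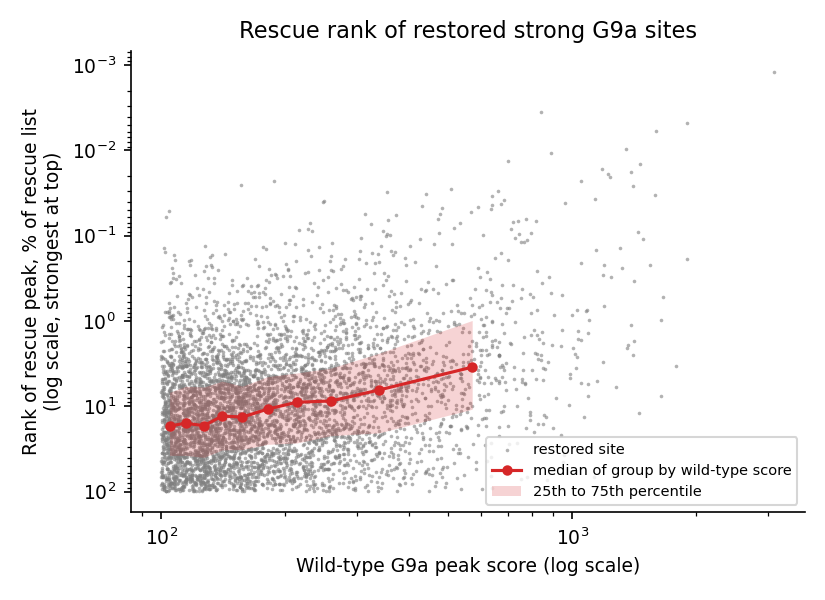
Rank of the best rescue peak, as a percent of the rescue list (log axis, strongest at top), against the wild-type G9a peak score (log axis) for the 5207 restored sites. Grey points are sites, red points the medians of 10 equal groups by wild-type score, and the band their 25th to 75th percentiles; the median moves from 17.0% to 3.47% while sites spread over most of the list in every group.

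A minority of sites stood high in the wild type and low in the rescue. The share of restored sites in the lower 50% of the rescue list was 23.7% on chromosomes 1 and 8 and 11.5% on the other autosomes. How far this chromosome-wide difference bears on the sites named here was not tested. The highest wild-type score among sites in the lower 50% of the rescue list belonged to chromosome 1 from 121289257 to 121298470, a peak of 9214 bp with a wild-type score of 1127.62 (rank 39) and a rescue score of 23.64 (rank 55848). Next came chromosome 1 from 155946589 to 155950943, with 949.81 (rank 68) and 20.64 (rank 77519). The third was chromosome 4 from 117080976 to 117084786, with 870.67 (rank 87) and 22.78 (rank 61091). It had 9 other restored sites within 100 kb. The strongest wild-type peaks with no rescue peak had scores of a like order: 1048.65 for the peak starting at 127020979 on chromosome 4, and 971.42 and 924.32 for those starting at 154937570 and 153362565 on chromosome 1.

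The peaks nearest the threshold were picked by wild-type score, so members and non-members here are alike in that score by choice. The 3 lowest-scoring restored sites, starting at 25261537 on chromosome 15, 79175186 on chromosome 14 and 103867626 on chromosome 11, had wild-type scores of 100, 100.01 and 100.03 and rescue ranks of 1475, 48763 and 69141. The 3 peaks just below it, starting at 102187729 on chromosome 8, 50204393 on chromosome 11 and 123463440 on chromosome 9, had wild-type scores of 99.99, 99.97 and 99.96 and rescue ranks of 11154, 19147 and 1812. A score of 100 corresponds to a p of 1e-10 by the definition MACS gives its score.

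Read from the rescue side, restored sites took up most of the very strongest rescue peaks and a smaller share further down. Of the 100 highest-scoring rescue peaks on chromosomes 1 to 19, 68 overlapped a restored site, 29 overlapped only other wild-type G9a peaks and 3 overlapped none. Of the top 1000, 481 lay at a restored site and 115 at no wild-type peak. Of the top 5000, 1848 (37.0%) lay at a restored site and 1206 (24.1%) at none. Over all 83433 rescue peaks on these chromosomes the shares were 7.83% and 72.8%. Overlap with the rescue list chose the sites, so these shares are given as a description. Ezh2 peaks lay at 22 of the top 100 and 137 of the top 1000, against 2.53% of all 83433 rescue peaks on these chromosomes. Rescue peaks with Ezh2 can still overlap a restored site where the Ezh2 peak reaches only the rescue peak.

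Restored sites were broad in the wild type and mostly narrower in the rescue. The median width of their wild-type peaks was 1432 bp (95% interval 1412 to 1455), with 25th and 75th percentiles of 1081 and 1980 bp and extremes of 406 and 12317 bp. The best rescue peak at these sites had a median width of 870 bp (855 to 882). The rescue peak was the narrower one at 4343 of the 5207 sites (83.4%; 82.4 to 84.4), with a median ratio of 0.612 (0.599 to 0.625). It lay wholly inside the wild-type peak at 2952 sites (56.7%) and enclosed it at 318 (6.11%). For comparison, the median over all peaks was 615 bp in the wild-type list and 457 bp in the rescue list, so the wild-type peaks were wider across the lists as a whole. At weaker wild-type peaks found in the rescue the median ratio was 0.934 (0.925 to 0.942). Restored sites were chosen on their wild-type score, which rose with wild-type width (Spearman's rho 0.51 across the 5207 sites), so the rule itself favours wide wild-type peaks. At the 1229 restored sites whose rescue peak also scored at least 100, a subset chosen after the data were seen, the median widths were 1487 and 1347 bp, the median ratio was 0.922 (0.900 to 0.946), and the rescue peak was narrower at 59.0% (56.2 to 61.8). This subset is chosen on rescue score as well, which rose with rescue width (rho 0.67), so the ratios show the effect of both choices together.

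Restored sites overlap a rescue peak by rule, so the distances between the paired peaks are given as a description. The centres of the wild-type and the best rescue peak were a median of 205 bp apart (198 to 214), or 14.4% of the wild-type width, with a 25th percentile of 89 bp. The overlap had a median of 791 bp, and 61 sites (1.17%) overlapped by under 100 bp. Of the sites, 4029 overlapped 1 rescue peak, 1011 overlapped 2, 143 overlapped 3, 20 overlapped 4 and 4 overlapped 5. Conversely, 71 sites shared their best rescue peak with another restored site, through 35 rescue peaks, so these were not separate matches.

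**Figure D2:**
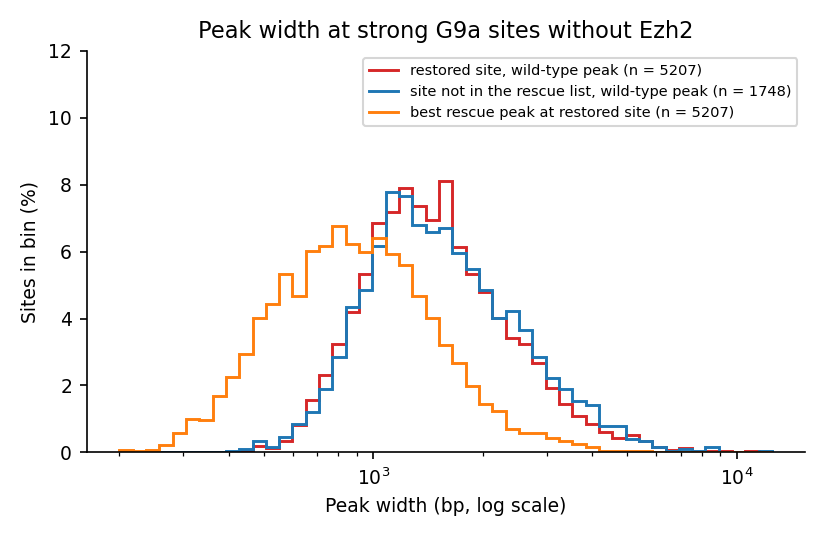
Width distributions (bp, log axis; percent of sites per bin) of the wild-type peaks at the 5207 restored sites, of the wild-type peaks at the 1748 strong sites not in the rescue list, and of the best rescue peaks at restored sites. Over all autosomes the wild-type curves lie over each other with medians of 1432 and 1458 bp, and the rescue curve lies to their left at 870 bp.

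The order of widths between restored and absent sites changed with the chromosomes and scores compared. Over all autosomes the 1748 strong sites without a rescue peak had a median width of 1458 bp (1417 to 1519), an interval that overlaps that of the restored sites. Outside chromosomes 1 and 8 restored sites were wider, at 1397 bp (1375 to 1416) against 1279 bp (1253 to 1329). On chromosomes 1 and 8, which held 41.6% of the absent sites, the medians were 1896 bp (1774 to 1985) and 1858.5 bp (1756 to 1956), with overlapping intervals. Over 10 equal groups by width the share found in the rescue stayed between 69.8% and 77.9%, with 76.0% in the narrowest group and 69.8% in the widest, although wide peaks had higher scores. At matched score restored sites had the smaller median width in each of 5 score classes, by 1172 against 1277 bp at scores of 100 to 150 and by 2042 against 2485.5 bp at 300 to 500. That order at matched score also held within chromosomes 1 and 8 and within the other autosomes in these 5 classes. In the highest class, at 500 and above, 23 absent sites gave the comparison, 6 of them outside chromosomes 1 and 8. With 1 library in each G9a group there is no test of these differences between conditions.

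The widest restored site was on chromosome 7 from 71091568 to 71103884, with 12317 bp, a wild-type score of 675.03 and 5 separate rescue peaks beneath it, the best scoring 89.88. The second, on chromosome 8 from 91509223 to 91519812 (10590 bp), scored 1066.5 in the wild type, and its best rescue peak of 1917 bp scored 50.33. The third, on chromosome 11 from 53609326 to 53619900 (10575 bp), scored 1488.59, and its best rescue peak was 5403 bp wide with a score of 553.32. The narrowest, starting at 28884518 on chromosome 11, 103661264 on chromosome 1 and 71445171 on chromosome 7, were 406, 439 and 448 bp wide. Each of these narrow peaks had a wider rescue peak, of 1032, 541 and 729 bp; they were chosen for their small wild-type width.

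The score class and the chromosome went with whether a strong site was found in the rescue. At scores of 100 to 150 the share found was 66.9% (65.2 to 68.5), at 150 to 200 it was 74.1%, at 200 to 300 it was 82.8%, at 300 to 500 it was 87.4%, and at 500 or more it was 93.8% (90.9 to 96.0; 349 of 372). The median score was 168.73 at restored sites and 137.34 at absent ones. On chromosomes 1 and 8 together, 613 of 1341 strong sites were found (45.7%; 43.0 to 48.4), against 4594 of 5614 on the other autosomes (81.8%; 80.8 to 82.8). In every score class the share on chromosomes 1 and 8 was lower: 35.4% against 74.2% at 100 to 150, and 81.3% against 97.9% at 500 or more.

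**Figure D3:**
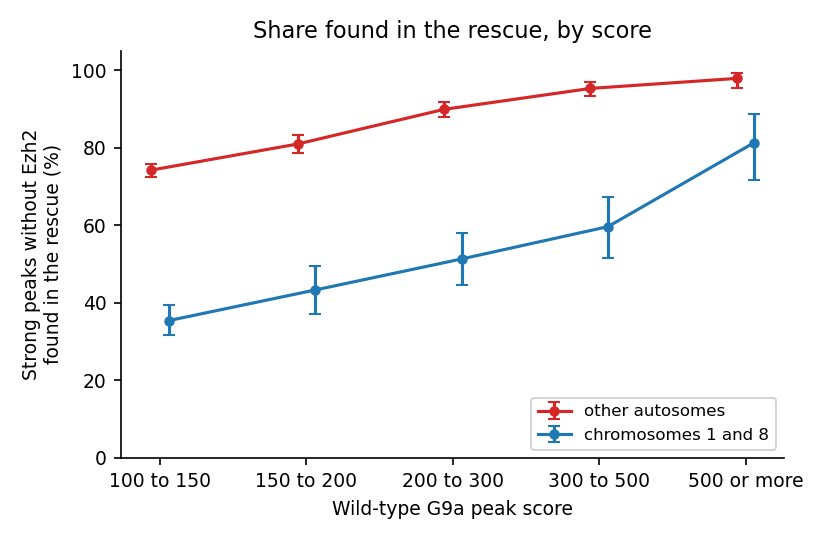
Percent of strong wild-type G9a peaks without Ezh2 that were found in the rescue, by wild-type score class, for chromosomes 1 and 8 and for the other autosomes. Bars are exact binomial 95% intervals over peaks; the share rises from 35.4% to 81.3% on chromosomes 1 and 8 and from 74.2% to 97.9% elsewhere.

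Restored sites themselves varied little in density between chromosomes, with chromosome 11 apart. Their density was 1.95 per Mb on chromosome 1 and 1.73 on chromosome 8, and between 1.65 and 2.48 on the other autosomes except chromosome 11, which had 4.04. Chromosomes 1 and 8 carried 11.8% of restored sites (10.9 to 12.7) on 13.3% of the autosomal length, but 41.6% of the absent sites. Before the rescue was considered, strong sites without Ezh2 were dense on chromosomes 1, 8 and 11, at 4.29, 3.77 and 5.02 per Mb, against 1.93 to 2.95 elsewhere. Chromosome 11 held 492 restored sites, 9.45% of them on 4.93% of the length, and 80.4% of its strong sites were found in the rescue. Over the 17 autosomes other than 1 and 8 the share found ran from 74.9% on chromosome 5 to 88.3% on chromosome 3.

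Peak width followed the same 3 chromosomes in the wild type. The median width of restored sites was 1868 bp on chromosome 1, 1911 bp on chromosome 8 and 2025.5 bp on chromosome 11, and 1223.5 to 1513.5 bp on the others. The best rescue peaks at restored sites were wide on chromosome 11 alone, at 1347.5 bp, against 872 bp on chromosome 1, 817 bp on chromosome 8 and 764 to 942 bp on the others. Over the whole lists the median wild-type peak was 733, 753 and 863 bp wide on chromosomes 1, 8 and 11 and 549 to 592 bp elsewhere, and the median rescue peak was 499, 509 and 609.5 bp wide on them and 427 to 482 bp elsewhere, so in the whole rescue list chromosomes 1 and 8 also had wider peaks than the others. Chromosomes 1 and 8 also had fewer rescue peaks in all, 2262 and 1354, against 8226 and 5186 in the wild type. Restored sites on these chromosomes had a median rescue rank in the top 21.4% (18.9 to 25.1), against 9.31% (8.82 to 9.89) on the other autosomes. The part of these chromosome-wide differences in the counts of restored sites was not tested.

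**Figure D4:**
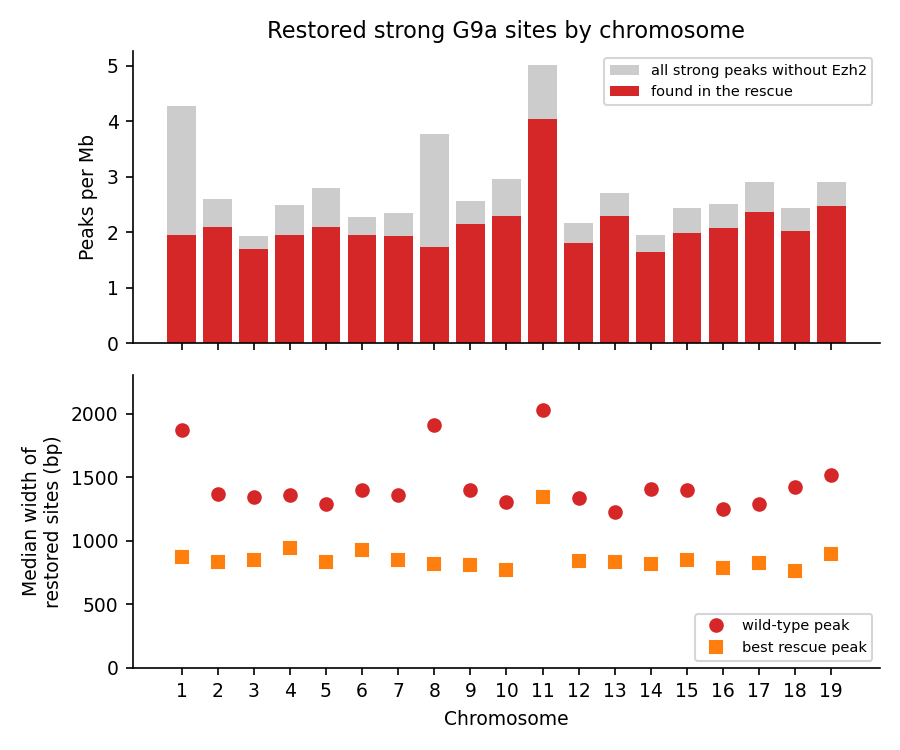
Top, strong wild-type G9a peaks without Ezh2 per Mb of each autosome (grey) and those found in the rescue (red). Bottom, the median width in bp of the wild-type peak (circles) and of the best rescue peak (squares) at restored sites; chromosomes 1, 8 and 11 have wide wild-type peaks, and chromosome 11 alone has wide rescue peaks at restored sites.

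Along the chromosomes the share found varied between blocks, and nearly all blocks under 50% lay on chromosomes 1 and 8. Among 133 blocks of 10 Mb with at least 20 strong sites outside chromosomes 1 and 8, the median share found was 82.2%, and 132 of them lay between 62.5% and 100%. The exception was the block of chromosome 11 starting at 110 Mb, where 24 of 70 strong sites were found (34.3%). On chromosomes 1 and 8 there were 29 such blocks, with a median of 45.2% and a range of 21.7% to 81.8%, and 20 of them were under 50%. The lowest was the block of chromosome 8 starting at 10 Mb, with 10 of 46.

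Restored sites often lay near each other. The median distance from a restored site to the next was 46.4 kb (42.4 to 51.1), with 25th and 75th percentiles of 6.71 and 185 kb. Another restored site lay within 10 kb of 1510 sites (29.0%; 27.8 to 30.3), within 1 kb of 594 (11.4%) and within 100 kb of 3267 (62.7%). Chained over gaps of up to 10 kb, the sites formed 650 clusters of 2 or more, of which 503 were pairs, 109 held 3 sites and 38 held 4 to 8. The other 3697 sites stood alone. Clustered sites had a higher median wild-type score than lone ones (186.755 against 162.45) and were wider (1565 against 1388 bp), with about the same median rescue rank, 10.6% and 10.5% of the list.

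Neighbours of restored sites were restored more often than neighbours of absent sites. Of 1459 pairs of neighbouring strong sites without Ezh2 within 10 kb of each other, 831 were both found in the rescue, 213 both absent and 415 mixed. Counted from both members of a pair, 80.0% of the neighbours of a restored site were restored, against 49.3% of the neighbours of an absent one and 74.9% of all strong sites. Outside chromosomes 1 and 8 these shares were 84.5% and 63.8% (1133 pairs), beside 81.8% of all strong sites there, and on chromosomes 1 and 8 they were 47.4% and 33.3% (326 pairs), beside 45.7% of all strong sites there. The share over all strong sites also counts sites that had no strong neighbour within 10 kb. Absent sites had such a neighbour more often than restored ones (39.1% against 34.0%), so that share is not a matched reference for the pairs. These differences were not tested. The closest restored sites were 1 bp apart, and neighbours at such distances may not be separate sites. When strong peaks within 1 kb were merged, the share of restored sites with another within 10 kb was 20.1%.

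The largest cluster spanned 39.6 kb on chromosome 4, from 117024202 to 117063790, and held 8 of the 9 strong wild-type peaks there. Its wild-type scores ran from 119.78 to 480.69 and its rescue scores from 23.39 to 71.33. The strongest of its sites, from 117031570 to 117036251 (4682 bp), had a score of 480.69 and rescue rank 7462, and the one with the lowest rescue score, from 117050987 to 117052757, had rescue rank 57472. The nearest Ezh2 peak was 29.0 kb from the cluster. In the rescue list the ranks of the 8 sites were spread from 5820 to 57472.

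The next clusters each held 7 restored sites and no absent one. On chromosome 14 from 99723350 to 99755409 (32.1 kb) the wild-type scores ran from 139.79 to 1647.38. Its last site, from 99753099 to 99755409, had wild-type rank 7 and rescue rank 807, while the site from 99739084 to 99740531 ranked 559 and 518. The rescue ranks of the 7 sites ran from 518 to 36266. Ezh2 was far from this cluster, at 536 kb. On chromosome 3 from 34626470 to 34664590 (38.1 kb) the wild-type scores were 156.91 to 440.43 and the rescue scores 25.46 to 103.61. Its highest-scoring wild-type site, from 34642399 to 34644432, had the lowest rescue score of the cluster, so the order within it was not kept.

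Clusters of 6 sites lay on chromosomes 6, 16 and 19. On chromosome 6 from 143055787 to 143096686, 1 site from 143076690 to 143078825 had wild-type rank 66 and rescue rank 35 (scores 958.4 and 797.98), and the other 5 had rescue scores of at most 117.06. On chromosome 19 from 14729134 to 14751192, the 6 sites had wild-type ranks of 319, 6548, 21, 859, 837 and 4273 in order of position and rescue ranks of 681, 55992, 925, 2420, 4036 and 2729. The other of the 7 strong peaks there had no rescue peak. On chromosome 16 from 25026139 to 25060874 the 6 rescue scores lay between 51.61 and 133.64, and 2 of the sites shared 1 rescue peak. By number of restored sites within 100 kb, taking 1 site per chromosome, the densest place was on chromosome 12 around the site from 12877835 to 12879050, with 11 others. Then came chromosome 11 from 8527673 to 8530447 with 10 and chromosome 2 from 128064809 to 128070042 with 9, tied with the region of the largest cluster on chromosome 4.

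Absent sites were clustered too. With the same set of strong sites as reference, 34.0% of restored sites (32.7 to 35.3) and 39.1% of absent sites (36.8 to 41.4) had another strong site within 10 kb. On chromosomes 1 and 8 these shares were 34.7% and 43.7%, and on the other autosomes 33.9% (32.5 to 35.3) and 35.8% (32.8 to 38.8), with intervals that overlap. Any other wild-type G9a peak lay within 10 kb of 83.1% of restored sites, 86.8% of absent sites and 73.6% of weaker sites found in the rescue.

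By rule no restored site overlapped an Ezh2 peak, and most had one within 100 kb. The median distance to the nearest Ezh2 peak of any list was 72.1 kb (69.0 to 74.9), with 25th and 75th percentiles of 28.0 and 160 kb and a maximum of 2515 kb. Ezh2 lay within 1 kb of 59 sites (1.13%), within 10 kb of 515 (9.89%; 9.09 to 10.7), within 100 kb of 3173 (60.9%), and over 500 kb from 222 (4.26%). The share with Ezh2 within 10 kb was 11.7% (10.2 to 13.3) at absent sites and 11.3% (10.8 to 11.8) at weaker sites found in the rescue. By list the median distance was 88.4 kb to wild-type library 1, 288 kb to wild-type library 0 and 242 kb to the knockout. The lowest score was 30 in library 1, 43.02 in library 0 and 43.03 in the knockout, so these lists had unlike score limits. The nearest peak came from library 1 at 4134 sites (79.4%), the list with the most peaks. The combined distance therefore rests on library 1: it was 168 kb without that library and 75.2 kb without library 0.

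The closest sites lay next to an Ezh2 peak without touching it. On chromosome 11 the site from 63739439 to 63740822 (wild-type score 234.06, rescue score 60.74) was 19 bp from a library 1 peak, 1.32 kb from a knockout peak and 1.91 kb from a library 0 peak. On chromosome 9 the site from 64235581 to 64237245 was 29 bp from library 1 and 0.573 kb from library 0, with the nearest knockout peak 367 kb away. On chromosome 4 the site from 133881458 to 133883054 was 61 bp from library 1, with both other lists over 43 kb away. The farthest sites, starting at 16844438 on chromosome 15, 91876816 on chromosome 14 and 48438057 on chromosome 16, were 2515, 2410 and 1947 kb from any Ezh2 peak. The one on chromosome 14 was also the most isolated from other restored sites among all 5207, at 5282 kb.

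Restored sites lay somewhat farther from Ezh2 than absent sites, and part of this went with the chromosomes. The medians were 72.1 and 57.7 kb (53.0 to 61.4). On chromosomes 1 and 8 they were 52.0 kb (46.4 to 59.6) and 48.3 kb (43.6 to 53.4), with overlapping intervals, and on the other autosomes 75.2 kb (72.2 to 79.8) and 64.3 kb (59.7 to 70.9). By distance the share found in the rescue was 71.0% (67.4 to 74.5) at 1 to 10 kb from Ezh2, 77.7% (76.0 to 79.4) at 100 to 500 kb and 86.7% (81.9 to 90.6) beyond 500 kb. The 77 strong sites within 1 kb were found at 76.6%, with a wide interval of 65.6 to 85.5. Weaker sites found in the rescue had nearly the same median distance as restored ones, 72.6 kb (70.9 to 74.5).

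**Figure D5:**
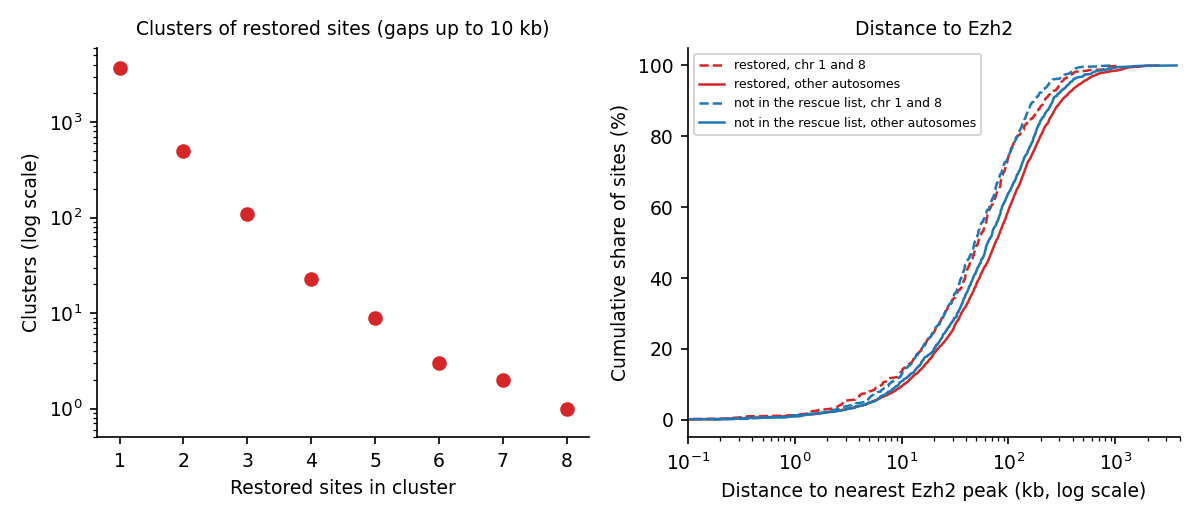
Left, number of clusters (log axis) against the number of restored sites in each, for sites chained over gaps of up to 10 kb; 3697 sites stood alone and the largest cluster held 8. Right, cumulative percent of restored and absent strong sites by distance to the nearest Ezh2 peak of any list (kb, log axis). Curves are given for chromosomes 1 and 8 and for the other autosomes. On the other autosomes the curve of restored sites lies to the right of that of absent sites around the medians, 75.2 and 64.3 kb. Within 1 kb it does not, with shares of 1.13% and 0.882%.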

How the data were processed

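Peak lists of 5 ChIP-seq libraries were used, and the 3 input libraries were not analysed here. Bowtie 0.12.7, MACS 1.4 and mm9 are named in the submitters' processing notes. Each deposited list gives a peak's chromosome, start, end and score; the score is the authors' value, which MACS scales as 10 times −log10 of a peak's p-value. Wild-type inputs were pooled as the control, per the labels' series design; the call threshold and the control of the rescue list are not given in the sources used here. Scores were used to rank and filter within a list. Where several rescue peaks overlapped a site, the highest-scoring was taken. Distances are between edges, and printed positions are 1-based on mm9.

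The members, groups and lists were chosen with earlier results of these data known. Named sites follow a rule: the 10 lowest mean ranks; 3 each just above and below the score of 100, widest, narrowest, closest to and farthest from Ezh2, densest within 100 kb on separate chromosomes, highest wild-type score in the lower 50% of the rescue list, and highest score not in the rescue. The 6 largest clusters and the extreme blocks were chosen after their values were seen.

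No test between conditions was run, because each G9a group has 1 library. Intervals are 95% and count peaks only. The overlap, distance and interval procedures were tested on simulated data. Python 3.11.15, numpy 2.4.6, pandas 2.3.3 and scipy 1.17.1 were used, with matplotlib 3.10.9 for figures and mm9 chromosome lengths from GenomeInfoDb 1.38.1. Alternatives changed the overlap, the score minimum of either list, the length of the rescue list, the Ezh2 lists and their distance, the merging of peaks and the chromosomes.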

Additional observations from a re-analysis of the deposited data

Results flagged for a closer look

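Chromosome X lies outside the rule that chose the sites. Of its 18 wild-type G9a peaks with a score of at least 100, 11 overlapped a rescue peak. Of these 11, 10 had no Ezh2 peak. On the autosomes, peaks that reached this score were found in the rescue at 74.9% without Ezh2 and 75.9% with it. Whether chromosome X differed from these shares was not tested. No group has 4 or more libraries, so no library could be flagged as standing apart from its group.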

How the results depend on the processing

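The number of restored sites moved by over 1.5 times with score limits: 2033 with a wild-type score of at least 200, 10558 with at least 50, 2918 with a rescue score of at least 50, and 2321 with as many top rescue peaks as strong wild-type ones. In these settings, in that order, the share found in the rescue was 86.0%, 59.1%, 42.0% and 33.4%, the median rescue rank 5478, 13447, 3762 and 2878, the share with a neighbour within 10 kb 19.9%, 39.7%, 20.1% and 18.4%, and the share on chromosomes 1 and 8 14.2%, 9.43%, 7.27% and 5.73%. The median width was 1882 and 1096 bp under the wild-type limits, and the median distance to Ezh2 76.3 and 77.8 kb under the rescue limits. Fewer or more peaks enter these settings by construction. A stricter overlap gave 73.5% found. A gap of up to 1 kb gave 79.5% found and 32.1% with a neighbour. Merging peaks within 1 kb gave 76.0% found, a width of 1486 bp and 20.1% with a neighbour. Without chromosomes 1 and 8 these were 81.8%, 1397 bp and 30.3%, with a median rescue rank of 7797 and 75.2 kb to Ezh2. Keeping 10 kb clear of Ezh2 gave 84.1 kb. With 1 wild-type Ezh2 library left out at a time the values were 75.2 to 168 kb (168.432 without library 1), 5208 to 5351 sites, and 74.8% to 74.9% found. The other planned values stayed within their intervals or within 1.5 times the count. In a setting chosen after seeing the data, a rescue score of at least 100 moved the median ratio of rescue to wild-type width from 0.612 to 0.922 and the share of sites with the narrower rescue peak from 83.4% to 59.0%. No paired analysis was possible because each G9a group has 1 library and no test was run. Depth is unknown, so a missing rescue peak cannot be told apart from a call missed at low depth.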
